A study of Mus musculus with 6 samples.

Results

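The genes described here are 32 genes of the endoplasmic reticulum (ER), its chaperones and the unfolded protein response, out of 56691 genes in the table. They were chosen by name, with earlier results of these data known, and each was found once in the table by its gene symbol. By role they are 5 chaperones of the ER lumen and membrane, 4 helper proteins of the chaperone BiP, 5 enzymes that rearrange disulfide or prolyl bonds, the small secreted proteins Manf and Creld2, 3 stress sensors with the transcription factor Xbp1, 8 genes of ER-associated degradation, and 4 genes of protein entry into and exit from the ER.

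The samples were bone marrow stromal cells (BMSCs) of wild-type mice, the adherent marrow cells that can form bone. The conditioned medium group (CM, 3 samples) received osteoblast differentiation medium with medium conditioned by Hepa 1-6, a mouse hepatoma line, and the control medium group (Control, 3 samples) received it with control medium. Both groups were kept for 7 days in α-MEM with 10% FBS, antibiotics, ascorbic acid at 50 µg/ml and β-glycerophosphate at 1.08 mg/ml, renewed every 2 days. The sources used here do not state whether the control medium was fresh or had been on other cells, so hepatoma factors and the effect of conditioning as such cannot be told apart. They also do not state that replicates are separate cultures or animals. The p-values therefore set the difference between the groups against the spread among these samples only, and that spread may be technical.

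Secretory and membrane proteins enter the ER through a channel, fold there with the help of chaperones, and are pulled back out for degradation if they fail to fold. When unfolded proteins accumulate, the sensors IRE1, PERK and ATF6 signal to the nucleus and to the ribosome, and the genes of many chaperones and degradation factors are induced. Osteoblasts secrete large amounts of type I collagen, and this folding machinery is known to be needed for it.

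The libraries held 19075341 to 21329475 counts in CM and 18661629 to 20808829 in Control, and the first principal component, with 80.8% of the variance, separated the groups. The cultures were not stromal cells alone. All 18 macrophage markers listed were measured, none was at 0, and their summed level was 7519 to 8307 FPKM in CM and 10180 to 11687 FPKM in Control (FPKM, a count scaled to exon length and library total). Most of this sum was the lysozyme gene Lyz2, at 4571 ± 355 FPKM in CM and 6683 ± 592 FPKM in Control. Of the 18 macrophage markers 5 were higher and 12 lower in CM. Csf1r, the receptor of the macrophage growth factor, was at 50.4 ± 1.95 FPKM in CM and 129.8 ± 1.34 FPKM in Control (SD, n = 3 each), while Itgam, an integrin of myeloid cells, was at 129 ± 4.57 FPKM in CM and 37.6 ± 1.17 FPKM in Control. Of 18 markers of osteoblasts and bone stroma 15 passed the filter on low values, 5 higher and 9 lower in CM, and Bglap, an osteocalcin gene, had 2 counts in CM and 2 in Control. Of 11 markers of B and plasma cells, which are rich in ER, 9 were below the filter, Tnfrsf17 was at 0, and Jchain and Mzb1 averaged 0.0133 and 0 FPKM in CM and 0.0267 and 0.0133 FPKM in Control. The other two were Sdc1, which epithelial and stromal cells also express, higher at 56.5 ± 1.52 FPKM in CM and 39.8 ± 3.18 FPKM in Control, and Cd79b, lower at 0.790 ± 0.219 FPKM in CM and 2.50 ± 0.225 FPKM in Control. Their list summed to 56.3 to 59.2 FPKM in CM and 39.0 to 44.8 FPKM in Control.

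Markers of other myeloid cells and of fat cells moved as well. The 11 neutrophil markers summed to 116 to 121 FPKM in CM and 9.42 to 12.99 FPKM in Control, and of 5 tested 4 were higher, among them Mmp8 at 84.3 ± 4.56 FPKM in CM and 2.91 ± 0.405 FPKM in Control and S100a8 at 24.5 ± 1.84 FPKM in CM and 3.71 ± 0.936 FPKM in Control. The fifth, S100a9, was at 0.867 ± 0.458 FPKM in CM and 1.95 ± 0.275 FPKM in Control. Ly6g and Cxcr2, which define mature neutrophils, had 0 counts in CM and 1 each in Control. The 9 mast cell and basophil markers summed to 17.6 to 20.3 FPKM in CM and 1.61 to 1.79 FPKM in Control. Nearly all of this was Mcpt8, at 18.8 ± 1.46 FPKM in CM and 1.49 ± 0.0458 FPKM in Control, while Fcer1a, Tpsb2 and Prss34 were at 0 in all libraries. The 8 adipocyte markers summed to 64.4 to 66.3 FPKM in CM and 118 to 166 FPKM in Control, with Lpl and Pparg lower, Fabp4 higher, and Adipoq and Plin1 below the filter. Most of that sum was Lpl, at 35.3 ± 0.930 FPKM in CM and 118 ± 26.0 FPKM in Control. Of 5 endothelial markers tested 1 was higher and 1 lower. Of 11 hepatocyte and hepatoma markers 6 were at 0 in all 6 libraries, and 1 passed the filter, Afp, at 1.42 ± 0.0833 FPKM in CM and 1.34 ± 0.0781 FPKM in Control (edgeR adjusted p = 0.63). ER chaperones are used by all secreting cells, stromal cells and macrophages included. Fewer cells of a type and less RNA per cell cannot be told apart in such samples, and the part of any of these marker differences in the results below was not tested.

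The comparison asked how the ER genes respond to hepatoma-conditioned medium during osteoblast differentiation. All 5 isomerases and 3 of the 5 chaperones rose in CM, with the isomerase Pdia4 at 1.99-fold and the others between 1.19-fold and 1.33-fold. BiP, encoded by Hspa5, did not pass the test. The stress sensors Atf6 and Eif2ak3 and the degradation genes Herpud1, Sel1l and Derl1 were lower in CM. Of the 32 genes 31 passed the filter of a mean of 1 FPKM over the 6 samples, and 13 of these rose, 5 fell and 13 did not pass the test (edgeR's quasi-likelihood test, Benjamini-Hochberg adjusted p under 0.05). Over all 12153 genes tested 45.9% were called, 23.0% as higher and 22.9% as lower, so that 41.9% higher among the 31 stands beside 23.0% and 16.1% lower stands beside 22.9%. Rises made up 50.1% of all calls in edgeR and 38.6% with limma on log2(TPM + 1), where the ER genes counted 12 rises and 6 falls.

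These were small differences. The median log2 fold change of the 31 genes was 0.06, against -0.0028 over all genes tested, and the median of its absolute size was 0.173, against 0.183. No ER gene reached a called change of at least 2-fold, in edgeR or in DESeq2, where 5.28% of all genes did in edgeR. A log2 fold change of at least 0.5 in either direction was seen in 1 of the 31, Pdia4, and in 16.6% of all genes. The FPKM values of the groups did not overlap in 21 of the 31, beside 53.2% of all genes. The median coefficient of variation within a group was 2.84%, and the 31 genes had 465 to 40966 counts in a library, so that a change of 1.11-fold, that of Ern1, could pass the test. The filter chose no gene by its group, because the lowest group mean among the 31 was 4.81 FPKM. Derl3, the one gene left out, had 9 counts in CM and 14 in Control.

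**Figure D1:**
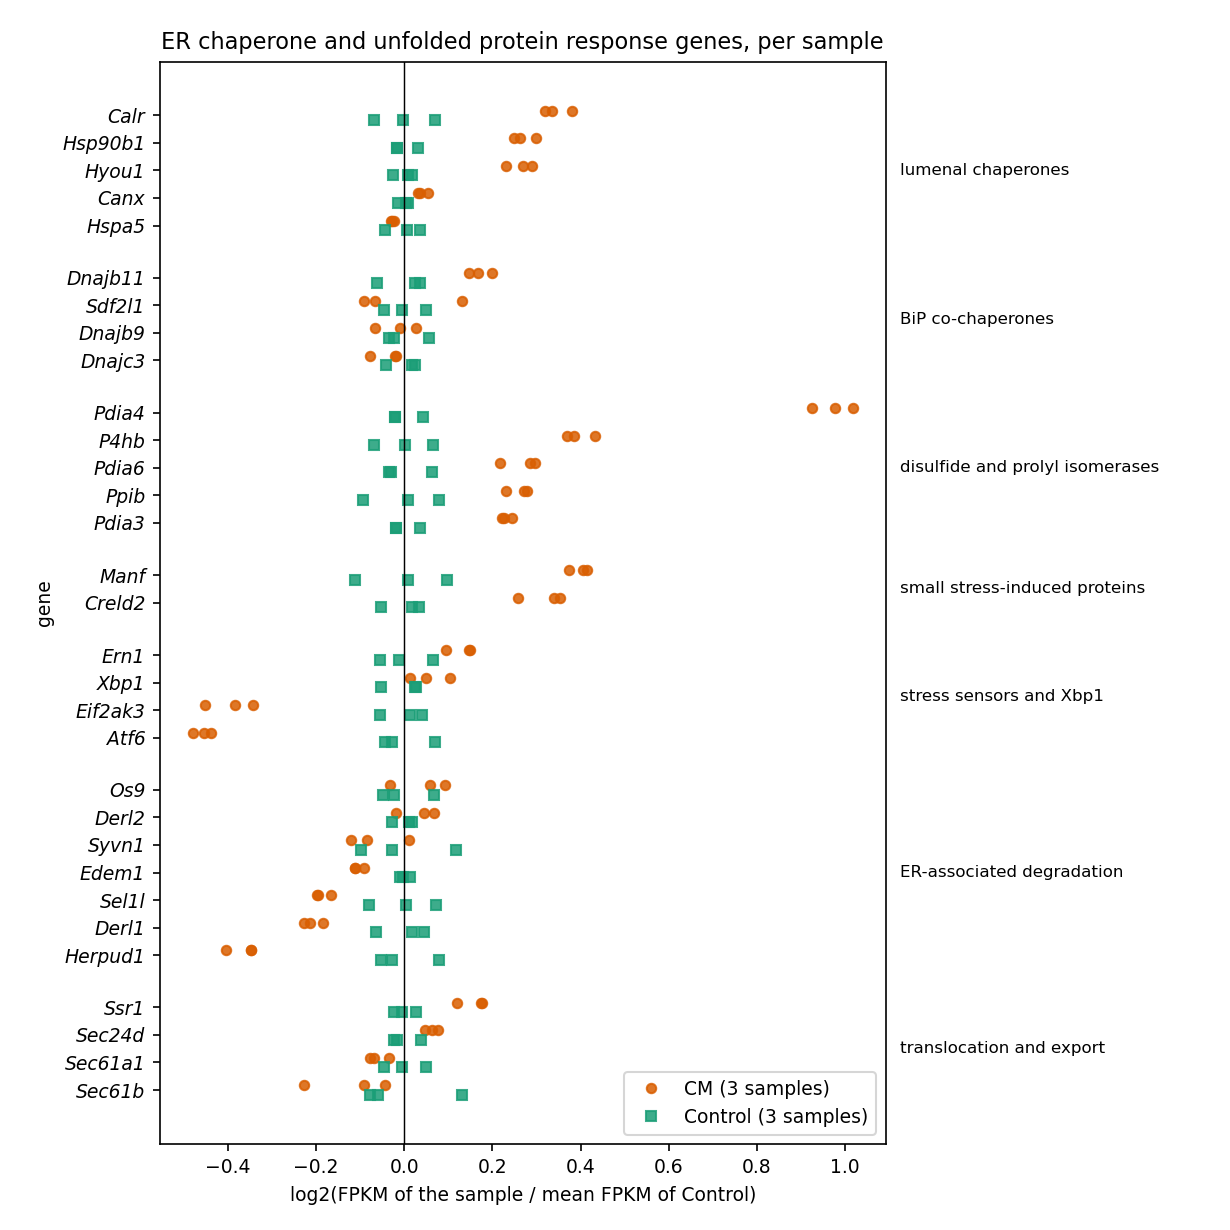
FPKM of each of the 31 tested ER genes in each sample, as log2 of its ratio to the gene's mean in Control (x axis), with CM samples as circles above Control samples as squares and genes grouped by role down the y axis. The 3 CM samples of Pdia4 lie far to the right of every other gene, and those of Atf6, Eif2ak3 and Herpud1 lie left of their Control samples without overlap.

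**Figure D2:**
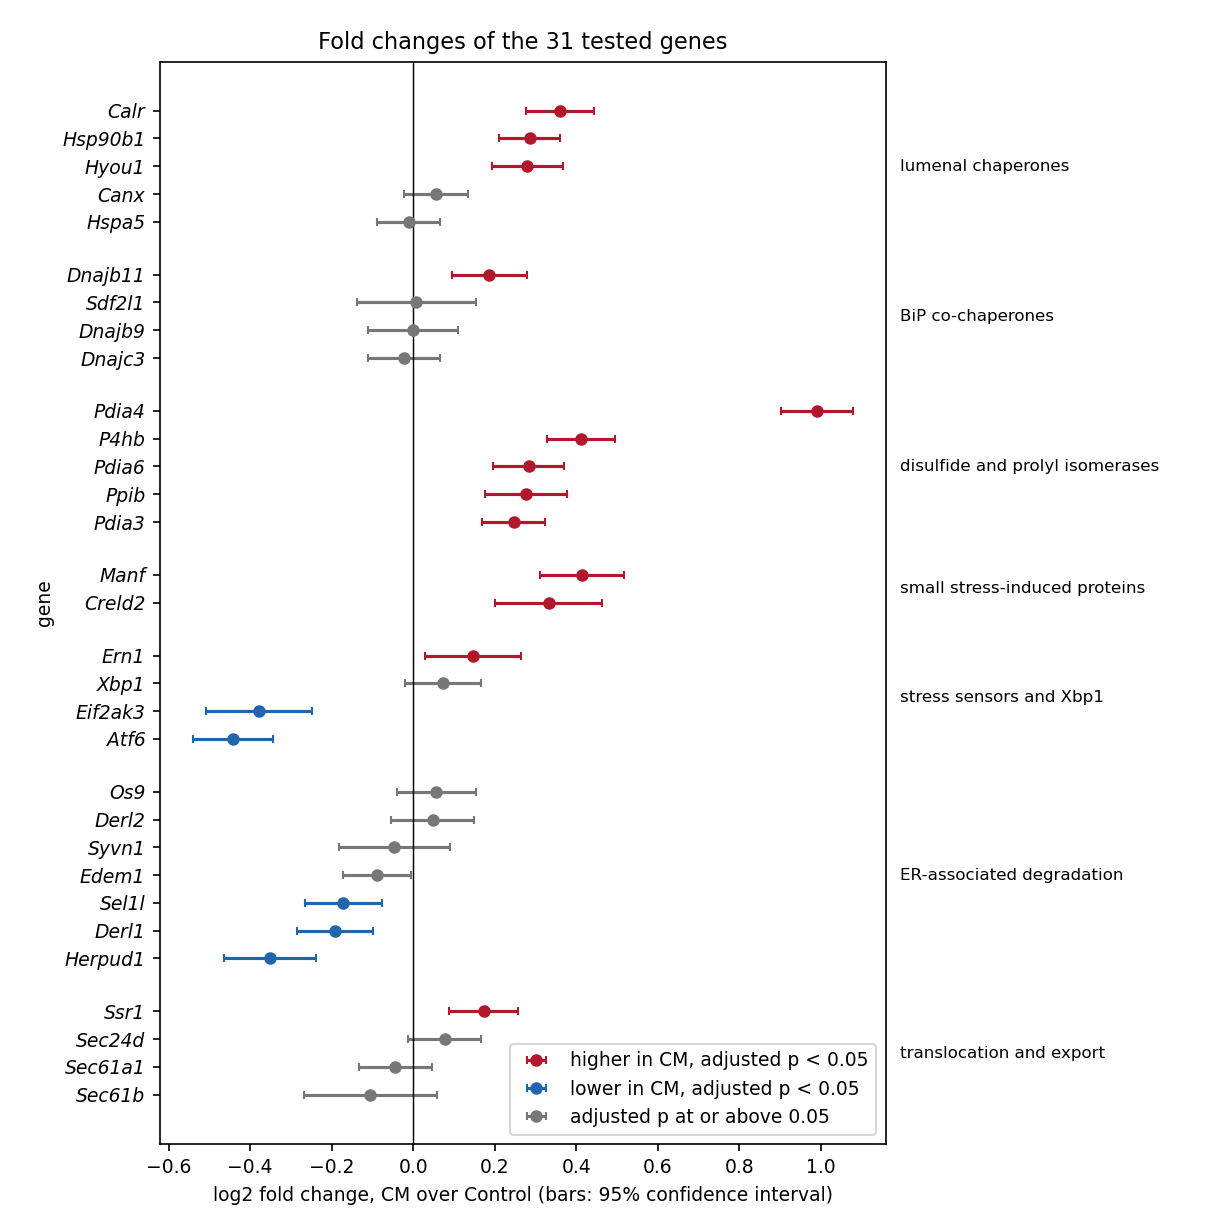
Log2 fold change of CM over Control for the 31 tested ER genes (x axis), with 95% confidence intervals as bars and genes grouped by role. All 5 isomerases lie to the right of 0, and the called genes of the sensor and degradation groups lie to the left apart from Ern1.

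Many of these genes are known targets of ATF6 and XBP1, which bind ER stress response elements in promoters. The printed sequences show where such an element stands in genes that rose, in BiP, which was not called, and in Herpud1, which fell. RefSeq promoter windows of assembly GRCm38.p6, from 250 bases before to 50 bases after the annotated start, were at hand for 27 of the 32 genes, and not for Atf6, Sec61a1, Derl1, Hyou1 and Manf. That assembly is not the GRCm39 build of the expression table, and its coordinates are given for the sequences only. Both strands were searched for exact matches to the ER stress response element (ERSE), which reads CCAAT, any 9 bases, and CCACG. Its left part is a site of the factor NF-Y and its right part a site of ATF6 and XBP1. It was found in 39 of 32851 promoters, or 0.119%, and in 9 of the 27 ER genes, or 33.3%. The first count is of windows and the second of genes, the 27 genes having 28 windows. Since the genes were chosen by name and many are known targets, the higher share among them is no result of these data. The matches are printed below in the direction that reads CCAAT first, with the fixed letters in capitals and the bases between them in lower case.
Calr: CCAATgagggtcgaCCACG
Hsp90b1: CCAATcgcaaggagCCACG
Hsp90b1: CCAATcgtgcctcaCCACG
Pdia6: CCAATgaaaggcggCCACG
Creld2: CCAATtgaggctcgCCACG
Hspa5: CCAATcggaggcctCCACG
Canx: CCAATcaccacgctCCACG
Dnajc3: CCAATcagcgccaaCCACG
Syvn1: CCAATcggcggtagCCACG
Derl3: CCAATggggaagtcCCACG

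The match of Hspa5 began 65 bases before the gene start (chr2:34772025-34772043), that of Pdia6 98 bases before it, and that of Calr 162 bases before it. Hsp90b1 had a pair of matches, 212 and 107 bases before its start (chr10:86705638-86705656 and chr10:86705533-86705551). Of the 9 genes with an exact match 4 rose (Calr, Hsp90b1, Pdia6 and Creld2), 4 were not called (Hspa5, Canx, Dnajc3 and Syvn1) and Derl3 was below the filter. Of the 18 genes of the promoter table without an exact match 7 rose, 3 fell and 8 were not called. Near matches were not counted, so these 18 may include genes with a variant of the element. Over all genes tested 23.0% rose and 22.9% fell. The element was thus present in promoters of genes with different results, and a match is a description of letters, not of a bound site.

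**Figure D3:**
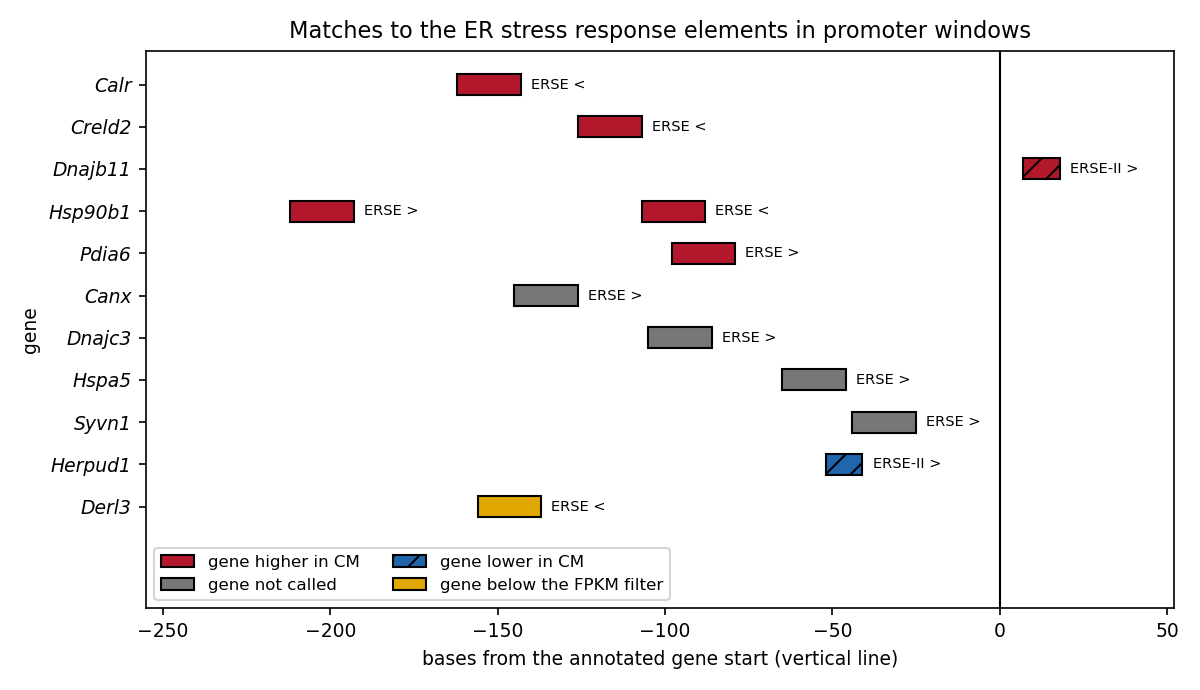
Position of each ERSE and ERSE-II match (bars, ERSE-II hatched) in bases from the annotated gene start (x axis) for the 11 ER genes that hold one, coloured by the gene's result in CM against Control. Matches lie between 212 bases before and 17 bases after the start, in genes that rose, in genes that were not called, and in Herpud1, which fell.

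A shorter variant, ERSE-II, which reads ATTGG, any 1 base, and CCACG, was found in 12 promoters, or 0.0365%. Among the ER genes it stood in Dnajb11, which rose, and in Herpud1, which fell, as shown with the fixed letters in capitals.
Dnajb11: ATTGGcCCACG
Herpud1: ATTGGgCCACG

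The core of the XBP1 site called UPRE, TGACGTGG, was in 222 promoters, or 0.676%, and among the ER genes in Sec24d alone, which was not called. The element of the PERK effector ATF4, TGATGNAAN, was in 1299 promoters, or 3.95%, and among the ER genes in Herpud1 alone, on the opposite strand and 113 bases before the start (chr8:94386316-94386324). With T as its last letter it was in 317 promoters, or 0.965%, and in none of the 27 genes. The 5 letters CCACG, which every ERSE and ERSE-II contains, stood in 32.8% of all promoters and in 23 of the 27 genes. Pdia4 is included, though its match does not lie within the 250 bases printed below. The 250 bases before the start of 4 genes are given on the strand of the gene, with ERSE and ERSE-II matches in capitals. Pdia4, the gene with the greatest fold change among the 31, has no exact match (chr6:47813513-47813762, minus strand), and Hspa5 has 1 (chr2:34771840-34772089, plus strand). Hsp90b1 has 2, the second of them reading on the opposite strand (chr10:86705445-86705694, minus strand), and Herpud1 has an ERSE-II (chr8:94386179-94386428, plus strand). Near matches were not counted. On the opposite strand the printed bases of Pdia4 hold a stretch that departs from the ERSE in its last letter alone. Those of Herpud1 end in a stretch that reads as an ERSE up to the letter before its last.
Pdia4: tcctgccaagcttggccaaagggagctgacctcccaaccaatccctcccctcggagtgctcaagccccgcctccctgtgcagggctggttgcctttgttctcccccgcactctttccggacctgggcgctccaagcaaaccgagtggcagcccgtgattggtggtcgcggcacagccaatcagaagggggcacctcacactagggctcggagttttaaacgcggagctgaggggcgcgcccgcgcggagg
Hspa5: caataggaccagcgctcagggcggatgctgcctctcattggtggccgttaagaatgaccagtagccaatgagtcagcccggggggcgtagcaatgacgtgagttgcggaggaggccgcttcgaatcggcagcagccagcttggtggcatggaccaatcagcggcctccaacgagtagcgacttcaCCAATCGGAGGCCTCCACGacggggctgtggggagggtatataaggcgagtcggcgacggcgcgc
Hsp90b1: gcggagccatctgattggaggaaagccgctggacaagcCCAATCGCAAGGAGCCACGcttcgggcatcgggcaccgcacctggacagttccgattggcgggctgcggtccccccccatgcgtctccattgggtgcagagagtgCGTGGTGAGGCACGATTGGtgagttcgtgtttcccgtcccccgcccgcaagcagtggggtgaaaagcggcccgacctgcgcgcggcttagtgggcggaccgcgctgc
Herpud1: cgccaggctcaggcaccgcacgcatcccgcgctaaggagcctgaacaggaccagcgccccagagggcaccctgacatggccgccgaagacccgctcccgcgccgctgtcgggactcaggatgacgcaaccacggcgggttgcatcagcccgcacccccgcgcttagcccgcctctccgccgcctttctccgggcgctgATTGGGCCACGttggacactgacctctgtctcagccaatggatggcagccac

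All 5 enzymes that form, break or rearrange protein bonds in the ER rose in CM, with a median log2 fold change of 0.28. Pdia4, a protein disulfide isomerase with several thioredoxin-like domains, had 207, 214 and 220.3 FPKM in CM, against 107, 112 and 107 FPKM in Control. Each CM sample stood well above each Control sample. The log2 fold change was 0.99 ± 0.042 (SE, 95% interval 0.90 to 1.08), a 1.99-fold difference (edgeR, adjusted p = 3.8e-14), and ranked 717 of 12153 genes by absolute size. Pdia4 (ENSMUSG00000025823, minus strand) spans 47773075 to 47790364 of chromosome 6 in GRCm39, and its interval includes a 2-fold change.

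P4hb encodes PDI itself, which is also the noncatalytic subunit of the collagen prolyl 4-hydroxylases. It had 467, 452 and 447 FPKM in CM, against 362, 347 and 330.1 FPKM in Control, a 1.33-fold difference without overlap (log2 0.41 ± 0.040, edgeR adjusted p = 2.9e-08). Pdia3, the isomerase that works on glycoproteins held by calnexin and calreticulin, had 391, 389 and 395 FPKM in CM, against 342, 329.8 and 329.7 FPKM in Control (1.19-fold, edgeR adjusted p = 1.2e-05). Its groups did not overlap. Pdia6, an isomerase that also binds BiP and IRE1, had 112, 117 and 119 FPKM in CM, against 101, 94.5 and 94.1 FPKM in Control (1.22-fold, edgeR adjusted p = 1e-05). Ppib, cyclophilin B, a prolyl isomerase in the complex that modifies type I procollagen, had 44.0, 42.5 and 43.8 FPKM in CM, against 36.5, 38.3 and 34.0 FPKM in Control (1.21-fold, edgeR adjusted p = 6.6e-05). Each of its CM samples was above each Control sample.

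The make-up of the isomerases therefore differed between the groups. Among the summed FPKM of P4hb, Pdia3, Pdia4 and Pdia6, Pdia4 took 17.6%, 18.3% and 18.6% in CM, against 11.8%, 12.7% and 12.5% in Control. Pdia3 took 33.2%, 33.2% and 33.5% in CM, against 37.5%, 37.4% and 38.3% in Control, although its own level was higher in CM. P4hb kept close to its share, with 38.7% ± 0.935 in CM and 39.1% ± 0.690 in Control (SD, n = 3 each). The summed level of the 5 isomerases was 1221, 1216 and 1225 FPKM in CM and 949, 921 and 895 FPKM in Control, a ratio of the means of 1.32.

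Of the 5 chaperones 3 rose. Calr, calreticulin, the calcium-binding lectin chaperone of the lumen, was the most abundant of the 32 genes per length, with 560.3, 585 and 566 FPKM in CM, against 471, 448 and 429 FPKM in Control. The groups did not overlap (1.28-fold, log2 0.36 ± 0.040, edgeR adjusted p = 1.7e-07). Hsp90b1, the Hsp90 of the ER, had 460.2, 465 and 476 FPKM in CM, against 396, 383 and 383 FPKM in Control (1.22-fold, log2 0.29 ± 0.036, edgeR adjusted p = 1.2e-06). Hyou1, a large Hsp70-like chaperone that also exchanges the nucleotide of BiP, had 30.2, 31.4 and 31.0 FPKM in CM, against 25.9, 25.3 and 26.0 FPKM in Control (1.21-fold, edgeR adjusted p = 1.2e-05). Both were higher in each CM sample than in each Control sample.

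The other two chaperones did not pass the test. Hspa5, BiP, the Hsp70 of the ER and the usual reporter of the unfolded protein response, had 321, 322 and 322 FPKM in CM, against 336, 329 and 318 FPKM in Control. The CM samples lay inside the range of the Control samples, and the log2 fold change was -0.01 ± 0.037 (edgeR adjusted p = 0.83). Its 95% interval of -0.09 to 0.07 leaves room for a rise or fall of a few percent, and with 83230 counts over CM and 82789 over Control depth is not the limit. Canx, calnexin, the membrane-bound partner of calreticulin, had 211, 210.0 and 214 FPKM in CM, against 204, 207 and 206 FPKM in Control. These values did not overlap, but the difference missed the threshold (log2 0.06, interval -0.02 to 0.13, edgeR adjusted p = 0.23).

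Set against BiP within each sample, other chaperones stood higher in CM. The ratio of Pdia4 to Hspa5 in FPKM was 0.645, 0.665 and 0.685 in CM and 0.319, 0.340 and 0.337 in Control. The ratio of Hsp90b1 to Hspa5 was 1.44, 1.44 and 1.48 in CM and 1.18, 1.16 and 1.20 in Control, and that of Calr to Canx was 2.66, 2.78 and 2.65 in CM and 2.31, 2.17 and 2.08 in Control. None of these ratios overlapped between the groups. Ratios within a sample do not depend on how the libraries were scaled. They restate the changes of the single genes and were not tested on their own.

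Of the 4 helpers of BiP, Dnajb11 alone rose, which is 25%, near the 23.0% of all genes tested. Dnajb11, a J-domain protein that brings unfolded clients to BiP, had 57.0, 55.0 and 55.8 FPKM in CM, against 51.0, 50.5 and 47.6 FPKM in Control (1.14-fold, edgeR adjusted p = 0.0014). Its groups did not overlap. Dnajb9, the J-domain protein that holds IRE1 in check and is a known target of XBP1, was at 22.5 ± 0.726 FPKM in CM and 22.7 ± 0.797 FPKM in Control (SD, n = 3 each, log2 interval -0.11 to 0.11, edgeR adjusted p = 0.99). Dnajc3, a J-domain protein known as an inhibitor of the kinase PERK, was at 38.8 ± 0.898 FPKM in CM and 39.9 ± 1.01 FPKM in Control (interval -0.11 to 0.07, edgeR adjusted p = 0.70). Sdf2l1, a lumenal partner of Dnajb11, had 26.5, 30.9 and 26.9 FPKM in CM, against 29.2, 28.1 and 27.4 FPKM in Control, and its groups overlapped (interval -0.14 to 0.15, edgeR adjusted p = 0.94).

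Both small stress-induced proteins rose. Manf, a secreted protein that binds BiP and is kept in the ER, had 42.9, 44.1 and 43.8 FPKM in CM, against 33.3, 35.4 and 30.6 FPKM in Control (1.33-fold, log2 0.41 ± 0.050, edgeR adjusted p = 6.1e-07). The span of Manf in the table (GRCm39 chromosome 9, 106715511 to 106769178) overlaps Rbm15b on the same strand and Dcaf1 on the other, which had 4497 and 4167 counts over the 6 libraries beside 16372 for Manf, so part of its reads may be uncertain. Creld2, a cysteine-rich protein with disulfide isomerase-like activity, had 26.6, 26.8 and 25.1 FPKM in CM, against 21.3, 21.5 and 20.3 FPKM in Control (1.26-fold, log2 0.33 ± 0.063, edgeR adjusted p = 0.00018). Neither gene overlapped between the groups.

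Among the stress sensors 2 fell. Atf6, the membrane-bound transcription factor that is cut in the Golgi and then induces chaperone genes, had 10.1, 10.4 and 10.3 FPKM in CM, against 13.7, 13.8 and 14.8 FPKM in Control. The groups were far apart (log2 -0.44 ± 0.047, 1.36-fold lower in CM, edgeR adjusted p = 9.2e-08). Eif2ak3, which encodes PERK, the kinase that slows translation under ER stress, had 4.84, 4.98 and 4.62 FPKM in CM, against 6.50, 6.37 and 6.08 FPKM in Control (log2 -0.38 ± 0.062, 1.30-fold lower in CM, edgeR adjusted p = 3.8e-05). Atf6 lies on chromosome 1 at 170532243 to 170695340 (minus strand) and Eif2ak3 on chromosome 6 at 70821499 to 70882229 (plus strand), both GRCm39.

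The result of the third sensor was less firm. Ern1, which encodes IRE1, the kinase and RNase that splices Xbp1 mRNA, had 5.99, 5.77 and 5.98 FPKM in CM, against 5.36, 5.20 and 5.65 FPKM in Control (log2 0.15 ± 0.056, edgeR adjusted p = 0.038). It was lost in 12 of 16 alternative settings, over which its adjusted p ranged between 0.010 and 0.31. Leaving out CM replicates 1, 2 or 3 gave an adjusted p of 0.11, 0.053 and 0.11, and leaving out Control replicates 1 or 2 gave 0.095 and 0.14. Xbp1, the transcription factor made active by that splicing, had 50.4, 49.1 and 52.3 FPKM in CM, against 49.5, 49.6 and 47.0 FPKM in Control, with overlap (log2 0.07, interval -0.02 to 0.17, edgeR adjusted p = 0.20). Its spliced and unspliced forms, like the cut form of ATF6 and the phosphorylation of PERK and IRE1, cannot be read from counts per gene. The ratio of Ern1 to Eif2ak3 was 1.24, 1.16 and 1.29 in CM and 0.825, 0.816 and 0.929 in Control.

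Of the 7 degradation genes tested 3 fell and 4 were not called, and the median log2 fold change was -0.09. Herpud1, a membrane protein that gathers the degradation complex and is among the strongest known ER stress targets, had 19.6, 20.4 and 20.4 FPKM in CM, against 27.4, 25.4 and 25.0 FPKM in Control. The groups did not overlap (log2 -0.35 ± 0.054, 1.27-fold lower in CM, edgeR adjusted p = 1.7e-05). Like that of Dnajb11, which rose, the promoter window of Herpud1 holds an ERSE-II, both printed above. The gene spans 95113066 to 95122005 of chromosome 8 (GRCm39, plus strand). Sel1l, the partner that steadies the ubiquitin ligase Syvn1, had 28.2, 28.3 and 28.8 FPKM in CM, against 30.6, 32.5 and 34.0 FPKM in Control (log2 -0.17 ± 0.046, edgeR adjusted p = 0.0042). Derl1, a channel-forming protein of the same complex, had 38.9, 37.7 and 38.1 FPKM in CM, against 44.7, 45.6 and 42.3 FPKM in Control (log2 -0.19 ± 0.045, edgeR adjusted p = 0.0013). Each CM sample of Sel1l and Derl1 was below each Control sample.

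Edem1, a lectin that hands misfolded glycoproteins to degradation, had 39.5, 39.0 and 38.9 FPKM in CM, against 42.5, 42.0 and 41.8 FPKM in Control, without overlap. Its difference missed the threshold (log2 -0.09, edgeR adjusted p = 0.075) but passed in 6 of 16 alternative settings, among them the one without Control replicate 3 (adjusted p = 0.027, range over the alternatives 0.010 to 0.19). Syvn1, the ubiquitin ligase, was at 7.44 ± 0.358 FPKM in CM and 7.78 ± 0.594 FPKM in Control (SD, n = 3 each, edgeR adjusted p = 0.60). Derl2, a relative of Derl1, was at 9.09 ± 0.280 FPKM in CM and 8.89 ± 0.151 FPKM in Control (edgeR adjusted p = 0.46). Os9, a lumenal lectin of the pathway, was at 75.6 ± 3.32 FPKM in CM and 73.5 ± 3.12 FPKM in Control (edgeR adjusted p = 0.34). The samples of the groups overlapped in all 3 of these genes. Syvn1 shares its span with Mrpl49 and Derl2 with Mis12, each on the opposite strand, and it is not known whether reads were counted by strand.

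At the gates of the ER 1 of 4 genes rose, or 25%, near the 23.0% of all genes tested. Ssr1, a subunit of the complex that assists the translocation channel, had 30.6, 30.6 and 29.4 FPKM in CM, against 27.0, 27.6 and 26.7 FPKM in Control (1.13-fold, edgeR adjusted p = 0.0014). Sec61a1 and Sec61b, which encode the channel's pore and a small subunit of it, were at 32.5 ± 0.512 and 18.8 ± 1.24 FPKM in CM and at 33.9 ± 1.14 and 20.4 ± 1.67 FPKM in Control (SD, n = 3 each). Both overlapped between the groups and missed the threshold (edgeR adjusted p = 0.43 and 0.29). Sec24d, a cargo-binding coat protein of the vesicles that leave the ER, needed for collagen export in bone, had 27.1, 27.4 and 27.6 FPKM in CM, against 25.9, 25.8 and 26.9 FPKM in Control. Its difference missed the threshold (log2 0.08, edgeR adjusted p = 0.15) except without Control replicate 3, where the adjusted p was 0.024 (range over the alternatives 0.024 to 0.71).

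Level and change went together among the 31 genes. Of the 7 genes with at least 100 FPKM in Control 5 rose (median log2 fold change 0.29), and the other two were Hspa5 and Canx. Of the 24 genes below 100 FPKM 8 rose and 5 fell, with a median of 0.03. Across the 31 genes the correlation of the log2 level in Control with the log2 fold change was 0.450 (Pearson) and 0.463 (Spearman), which describes these genes only, since they share the libraries, genes are not independent replicates, and the Control level enters both axes. Because the abundant genes rose, the summed level of all 32 was 3413, 3446 and 3447 FPKM in CM and 3000.2, 2929.7 and 2858 FPKM in Control, a ratio of the means of 1.17. The same sum over the 8 degradation genes gave a ratio of 0.929.

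**Figure D4:**
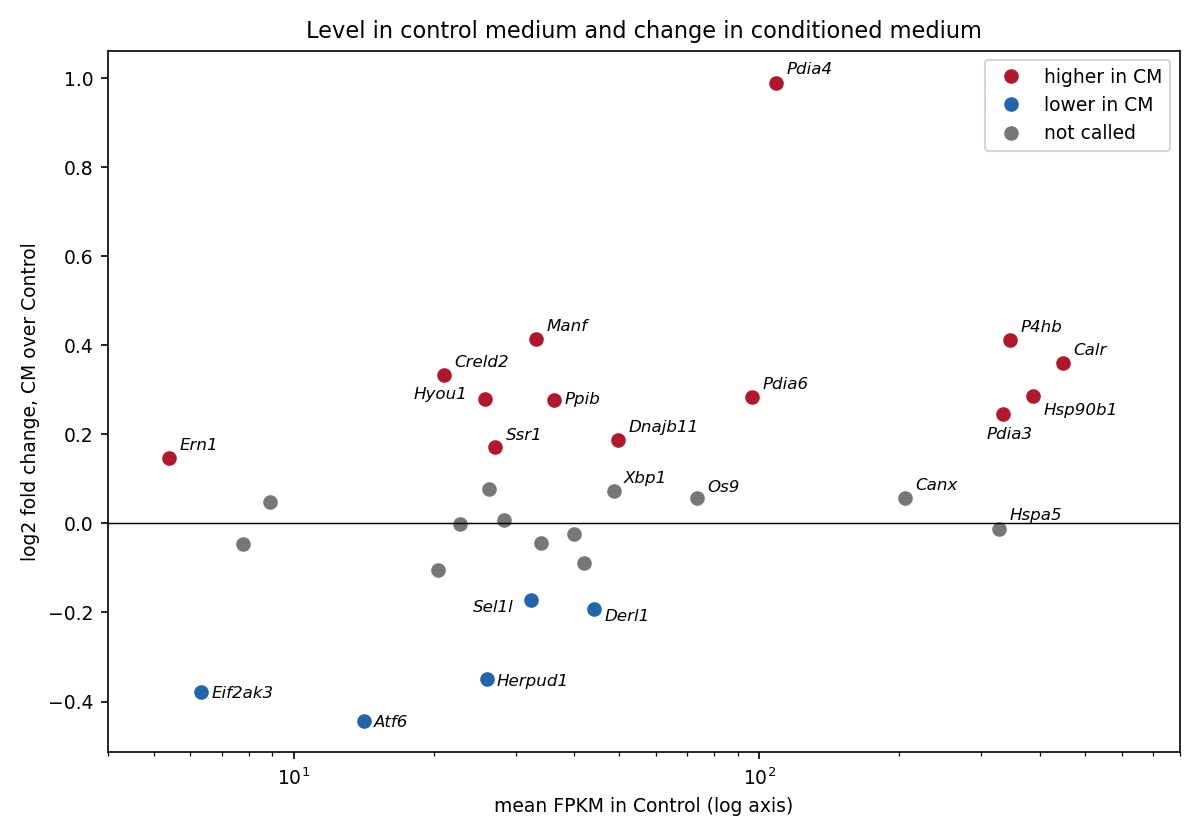
Mean level in Control in FPKM (x axis, log scale) and log2 fold change of CM over Control (y axis) for the 31 tested ER genes, one point each, coloured by result. The 7 genes above 100 FPKM hold 5 that rose and Hspa5 and Canx near 0, while all 5 genes that fell lie below 100 FPKM.

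By annotated location, of the 15 genes that the table's GO terms place in the ER lumen 10 rose (median log2 fold change 0.28), and of the 14 placed in the ER membrane 4 rose and 3 fell, with a median of -0.0016. The GO terms put Hspa5, Hsp90b1, Calr and Sdf2l1 in both, and the terms were not tested against each other. Hsp90b1 and Calr are thus among the 4 rises of the membrane term, which leaves out Atf6 and Derl1, both lower in CM. Over all genes tested 23.0% rose and 22.9% fell, and the membrane counts stand near these shares. In the GO term for the response to ER stress 12 of the 32 genes are listed, of which 5 rose and 2 fell. Among the 73 further genes of the lumen term that were tested 20 rose and 22 fell, with a median of 0.02.

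The ER genes stood among 190 tested genes of related lists, of which 46 rose and 41 fell, with a median of -0.0021. These shares, 24.2% higher and 21.6% lower, are close to those of all genes tested. Of 16 genes of the PERK arm and the integrated stress response 2 rose and 6 fell. Atf4, the transcription factor of the PERK arm, was at 88.4 ± 1.66 FPKM in CM and 90.0 ± 4.64 FPKM in Control (SD, n = 3 each, edgeR adjusted p = 0.88). The known targets of that arm differed among themselves. Chac1, which breaks down glutathione, had 4.96, 4.61 and 3.87 FPKM in CM, against 10.7, 9.70 and 8.04 FPKM in Control (log2 -1.06 ± 0.12, edgeR adjusted p = 2.9e-07). Trib3, a pseudokinase induced by ATF4, had 10.6, 11.8 and 10.2 FPKM in CM, against 19.4, 16.7 and 16.4 FPKM in Control (log2 -0.67 ± 0.076, edgeR adjusted p = 2.7e-07). Neither overlapped between the groups.

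Ddit3, which encodes the stress factor CHOP, overlapped between the groups, at 28.2 ± 1.25 FPKM in CM and 25.9 ± 2.34 FPKM in Control (edgeR adjusted p = 0.083). Without Control replicate 1 it passed, with an adjusted p of 0.032 (range over the alternatives 0.032 to 0.35). Ppp1r15a, the stress-induced phosphatase subunit that restarts translation, was at 14.7 ± 1.32 FPKM in CM and 16.4 ± 1.31 FPKM in Control (edgeR adjusted p = 0.095). It passed as lower without CM replicate 2 (0.024) or Control replicate 3 (0.0079), and its range over the alternatives was 0.0079 to 0.34. Its constitutive relative Ppp1r15b rose (log2 0.36 ± 0.045), as did Eif2ak2, the kinase PKR (log2 0.31 ± 0.050). Bcl2l11, the cell death gene BIM that CHOP is known to induce, was at 2.72 ± 0.255 FPKM in CM and 7.07 ± 0.504 FPKM in Control (log2 -1.36 ± 0.073, edgeR adjusted p = 1.8e-12).

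Among 17 sensor partners and related transcription factors 1 rose and 7 fell. Casp12, an ER-associated caspase of rodents, rose (log2 0.68 ± 0.059, edgeR adjusted p = 5.2e-09). Crebrf, a regulator of CREB3 factors, fell (log2 -0.80 ± 0.062), as did Nfya, the subunit of NF-Y that binds the CCAAT part of the elements printed above, with 9.53, 8.86 and 8.54 FPKM in CM, against 12.9, 12.3 and 13.5 FPKM in Control (log2 -0.51 ± 0.054, edgeR adjusted p = 8.6e-08). Creb3l1, the ER-bound factor that drives the collagen gene Col1a1 in osteoblasts, was at 34.7 ± 2.39 FPKM in CM and 33.7 ± 0.450 FPKM in Control (edgeR adjusted p = 0.38), and its relative Creb3l2 fell (log2 -0.26 ± 0.051, edgeR adjusted p = 0.00032).

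Of 23 further disulfide enzymes and foldases 8 rose and 5 fell. Ero1a, the oxidase that recharges PDI and is a known hypoxia target, had 59.1, 59.7 and 62.1 FPKM in CM, against 44.1, 39.7 and 42.0 FPKM in Control (log2 0.54 ± 0.045, edgeR adjusted p = 2.2e-09). Fkbp11, a prolyl isomerase of secretory cells, had the largest rise of the list at a low level, 3.02 ± 0.272 FPKM in CM and 1.67 ± 0.412 FPKM in Control (log2 0.86 ± 0.16, edgeR adjusted p = 0.00014). Tmx4, a membrane-bound thioredoxin-like protein, fell (log2 -0.75 ± 0.054), as did Ppic, cyclophilin C (log2 -0.26 ± 0.047). Of 23 other Hsp70 partners and genes of glycoprotein folding 7 rose and 3 fell. The glucosidase subunit Prkcsh (log2 0.38 ± 0.047) and the disulfide reductase Dnajc10 (log2 0.31 ± 0.043) rose, and the glucosyltransferase relative Uggt2 fell (log2 -0.26 ± 0.064). Sil1, a nucleotide exchange factor of BiP, fell too (log2 -0.23 ± 0.071, edgeR adjusted p = 0.011), though not without CM replicate 3 (0.068, the highest of its alternatives, which began at 0.0046). Without Control replicate 3 the falls of this list numbered 5.

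The translocation machinery beyond the members held 11 genes that rose and 2 that fell of 22 tested, with a median log2 fold change of 0.15. Spcs3, a signal peptidase subunit, had 62.5, 62.4 and 61.8 FPKM in CM, against 47.0, 47.5 and 45.2 FPKM in Control (log2 0.43 ± 0.042, edgeR adjusted p = 2.5e-08), and Sec61a2, a second form of the pore gene, rose at a low level (log2 0.45 ± 0.075). Tram1, a translocation helper, fell (log2 -0.21 ± 0.041). Spcs1, another signal peptidase subunit, fell as well (log2 -0.18 ± 0.055, edgeR adjusted p = 0.0092) except without Control replicate 2 (0.058, with a range from 5.4e-05 to 0.058), which left 1 fall in the list. Of 27 genes of N-glycan assembly and transfer 5 rose and 2 fell, led by Rpn1, a subunit of the oligosaccharyltransferase, with 58.9, 57.8 and 58.6 FPKM in CM, against 45.8, 45.7 and 45.0 FPKM in Control (log2 0.38 ± 0.040, edgeR adjusted p = 1.1e-07), and by the mannosyltransferase Alg9 (log2 0.28 ± 0.071). Both falls of that list were small, at log2 -0.20 ± 0.072 for Srd5a3 and -0.19 ± 0.047 for Alg10b. Srd5a3 did not pass without CM replicate 2 or 3 (edgeR adjusted p = 0.060 and 0.12) or Control replicate 1 or 2 (0.11 and 0.062), over alternatives of 0.013 to 0.12, and the list then held 1 fall. Without Control replicate 3 it held 6.

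Of 25 further degradation genes 3 rose and 6 fell. The membrane ubiquitin ligase Rnf5 (log2 -0.39 ± 0.081) and Herpud2, the relative of Herpud1 (log2 -0.28 ± 0.050), had the largest falls. The largest rises, Ube2j2 (log2 0.18 ± 0.060) and Erlin1 (log2 0.15 ± 0.058), were small. Ube2j2 did not pass without CM replicate 1 (edgeR adjusted p = 0.13, alternatives 0.016 to 0.13). Erlin1 did not pass without CM replicates 2 or 3 (0.079 and 0.22) or Control replicates 1 or 2 (0.055 and 0.10), over alternatives of 0.023 to 0.25. Leaving out CM replicate 1, 2 or 3 or Control replicate 2 lowered the count of rises to 1 each time. Of 26 genes of vesicle transport between ER and Golgi 8 rose and 5 fell, with Ergic1, a cycling membrane protein, at log2 0.56 ± 0.042 and the coat protein Sec24a at 0.38 ± 0.051 on one side, and the cargo receptor Mia2 at -0.30 ± 0.044 and Kdelr1 at -0.21 ± 0.049 on the other. Kdelr1 and its relatives fetch escaped chaperones back to the ER. Kdelr2 was at 69.5 ± 3.32 FPKM in CM and 75.2 ± 2.82 FPKM in Control (edgeR adjusted p = 0.11), and 0.019 without Control replicate 3 (range over the alternatives 0.018 to 0.41), while Kdelr3 was at 42.1 ± 3.12 FPKM in CM and 43.4 ± 3.67 FPKM in Control (edgeR adjusted p = 0.76).

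Of 12 genes that shape the ER or mark it for autophagy 1 rose and 6 fell, with a median of -0.15. Retreg1, a receptor for the autophagy of ER sheets, had 6.22, 5.06 and 5.73 FPKM in CM, against 9.95, 9.31 and 9.99 FPKM in Control (log2 -0.76 ± 0.073, edgeR adjusted p = 1.9e-08). Atl3, which fuses ER tubules, fell as well (log2 -0.44 ± 0.045), and Ckap4, which spaces ER sheets, rose (log2 0.28 ± 0.042). The main cargo of the osteoblast ER fell, with Col1a1 at 641 ± 29.4 FPKM in CM and 793 ± 39.8 FPKM in Control (SD, n = 3 each, log2 -0.29 ± 0.040, edgeR adjusted p = 4.2e-06) and Col1a2 at log2 -0.28 ± 0.035. The collagen-related members P4hb and Ppib stood the other way, as given above. Sp7, which osteoblast precursors need to mature, was at 2.24 ± 0.560 FPKM in CM and 6.77 ± 0.515 FPKM in Control, and Runx2, which acts before it, fell by 0.28 on the log2 scale. The largest fall of the stromal and bone markers was that of Ibsp, at 1.94 ± 0.770 FPKM in CM and 19.9 ± 2.58 FPKM in Control (log2 -3.33 ± 0.15, edgeR adjusted p = 7.9e-14). Omd (log2 -1.51), Pdgfrb (-0.25), Sparc (-0.25) and Alpl (-0.15) were lower in CM as well. Other stromal and bone markers were higher, with Spp1, osteopontin, which macrophages also make, at 1335 ± 35.8 FPKM in CM and 318 ± 15.7 FPKM in Control. The receptor gene Pdgfra was 2.37-fold, the chemokine gene Cxcl12 1.75-fold, the cadherin gene Cdh11 1.43-fold and the collagen gene Col3a1 1.11-fold higher in CM.

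**Figure D5:**
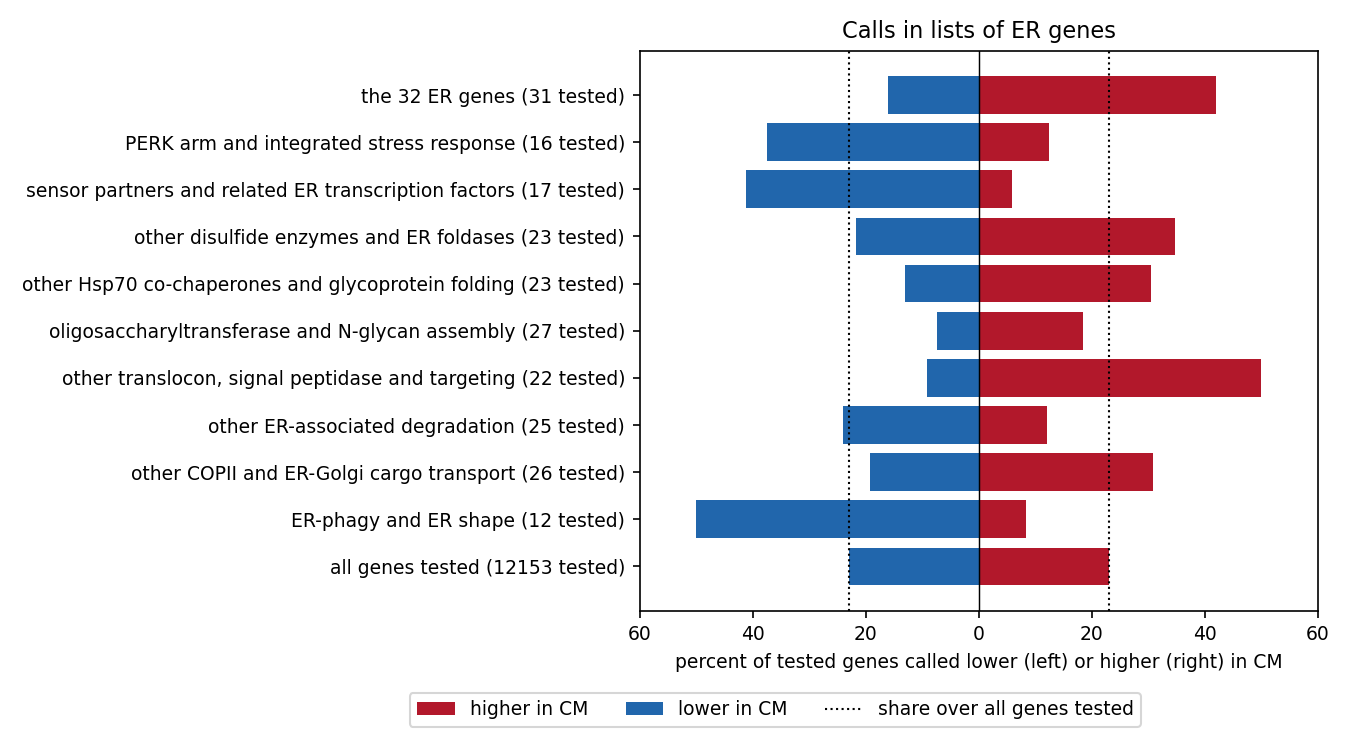
Percent of the tested genes of each list called higher (bars to the right) or lower (bars to the left) in CM against Control, with dotted lines at the shares over all genes tested, 23.0% and 22.9%. The 32 ER genes reach 41.9% higher and the translocation list 50%. The lists for ER-phagy, for sensor partners, and for the PERK arm with the integrated stress response reach 50%, 41.2% and 37.5% lower.

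In the broader terms of the deposited annotation, without the 32 genes, the response to ER stress held 8 genes that rose and 17 that fell of 51 tested (median -0.02), and protein processing in the ER held 36 that rose and 24 that fell of 140 tested (median 0.0023). The largest called changes of these terms beyond genes already given were falls of Map3k5, a stress kinase downstream of IRE1 (log2 -0.87 ± 0.074), and of Hspa2, a cytosolic Hsp70 (log2 -0.74 ± 0.11), and a rise of Pla2g6, a phospholipase (log2 0.44 ± 0.11). The lists overlap in part, share the 6 libraries, and were described by counts, not tested as sets.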

How the data were processed

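RNA of 6 libraries was sequenced as poly(A)-selected paired ends, per the labels' protocols. Listed in the submitters' processing notes, without role or order, are the tools HISAT2 2.0.1, HTSeq 0.6.1, cutadapt 1.9.1 and DESeq2 and the GRCm39 build. The authors deposited 1 table with a whole-number read count and an FPKM per gene and sample, per the file headers. 2639 of its genes have no symbol. The sources used here do not state whether counting used strand, so overlapping and antisense genes cannot be separated.

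The 32 genes and all lists were chosen with earlier results of these data known. Genes averaging 1 FPKM or more over all samples were tested on counts with edgeR 4.0.16 (R 4.3.3; TMM factors, quasi-likelihood, group as the only term), with Benjamini-Hochberg adjustment over all 12153 genes and a threshold of 0.05. Log2 fold changes are CM minus Control, with SE from the test statistic. FPKM is proportional to count over exonic length and total count. No pair of libraries of a group agreed within counting noise, as 1 library deposited under both names would (chi-square over genes, 2.24 to 2.70 per degree of freedom in CM and 4.10 to 9.03 in Control), so none were merged. Named in the text are all 32 genes, in each further list up to 2 called genes with the largest positive and 2 with the largest negative change, and a few fixed genes and markers. DESeq2 1.42.0, limma 3.58.1 on log2(FPKM + 1), log2(FPKM + 0.1) and log2(TPM + 1), other scalings and filters, a replicate block and leaving out each library were the alternatives. Promoter windows came from a RefSeq table of GRCm38.p6, matched by symbol, and 5 of the 32 genes had no window. Of the symbols in the further lists 4 were found under a newer or older name.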

Additional observations from a re-analysis of the deposited data

How the results depend on the processing

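Over 16 alternatives 12 to 14 of the 31 ER genes were called higher and 5 to 6 lower. None reversed, and the calls of 28 were the same in all 16. The exceptions were Ern1, Edem1 and Sec24d, of which Ern1 also missed the threshold with DESeq2 (adjusted p = 0.080, range over the alternatives 0.010 to 0.31). With each library left out in turn the ER genes counted 12 to 14 higher and 5 to 6 lower, all genes 2396 to 2933 higher and 2373 to 2940 lower, and the related ER genes 38 to 48 higher and 37 to 54 lower. With limma on log2(TPM + 1), 38.6% of all calls were higher, against 50.1% in edgeR, the ER genes counted 12 higher and 6 lower, and the related ER genes 32 higher and 56 lower. The same setting gave 5 rises among the further foldases, 7 rises and 4 falls in the translocation list, 5 falls among the Hsp70 partners, 6 falls in the N-glycan list and 0 rises among the further degradation genes. The falls in the N-glycan list, 2 in edgeR, were 1 with DESeq2 or without a filter and 5 with upper quartile factors. The 3 rises among the further degradation genes were 1 with upper quartile factors, with library totals only, without a filter and with limma on FPKM. The median of all genes moved by at most 0.05 on the log2 scale under any scaling. Same-numbered samples of CM and Control did not deviate together (correlations -0.0056, 0.019 and 0.038). A pairing that leaves no shared deviation would not be seen this way, so whether the numbers pair samples is not known. A fit with the replicate number as a block called 2831 genes higher and 2831 lower, 13 and 5 of the ER genes, and 46 and 41 of the related genes. Depth limits Derl3, which was not tested. The cause of these shifts was not tested.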

Other observations

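Other genes that the GO terms place in the ER lumen were looked at after their values were seen. P4ha1 and P4ha2, the catalytic subunits that join P4hb in collagen prolyl 4-hydroxylase, were at 122 ± 3.29 and 35.2 ± 1.88 FPKM in CM and at 81.5 ± 3.36 and 22.2 ± 1.11 FPKM in Control (SD, n = 3 each), log2 fold changes of 0.60 ± 0.043 and 0.68 ± 0.049 (edgeR adjusted p = 1.8e-10 and 2.4e-10). H6pd, which makes NADPH in the lumen, rose as well (log2 0.55 ± 0.045, edgeR adjusted p = 1.6e-09). The collagen chains Col5a3 (log2 -0.90 ± 0.082) and Col6a3 (log2 -0.72 ± 0.051) fell, as did Cln6, an ER membrane protein (log2 -0.86 ± 0.075). All these genes had groups that did not overlap, which held for 53.2% of all genes tested. Lyz2, a lysozyme of macrophages that the same term lists, was at 4571 ± 355 FPKM in CM and 6683 ± 592 FPKM in Control.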
